A study of Homo sapiens with 6 samples.

Results

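Cytoplasmic dynein is the motor that carries cargo toward the minus ends of microtubules, and in dividing cells it also acts at the spindle poles, the kinetochores and the cell cortex. It is built from heavy, intermediate, light intermediate and light chains. It becomes processive when it binds dynactin, a large complex with a short actin-like filament, and an adaptor that links it to cargo. LIS1, encoded by PAFAH1B1, and the related proteins NDE1 and NDEL1 help to assemble and hold the active motor. The genes described here are 10 of the 26699 in the deposited table: DYNC1H1, DYNC1I2, DYNC1LI1 and DYNC1LI2 of dynein, DCTN1, DCTN2 and DCTN4 of dynactin, and the cofactor genes PAFAH1B1, NDE1 and NDEL1. They were found by symbol, and the set itself was chosen by a proposal made with the expression difference between the groups in view. Their differences between the groups are therefore given as a description, with no p-value, and the counts of members are not read as evidence.

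Poly(A) RNA of OVCA433, an established cell line from human ovarian cancer, was sequenced in 3 si libraries and 3 sinc libraries. All 6 are of the same cell line, and the genotype labels are OVSOGA1si and OVSOGA1sinc. Neither abbreviation is spelled out in the labels, the reagent behind them is not given in the sources used here, and no label names a time or dose. The series title says that the study concerns SOGA1 deficiency. SOGA1 encodes a coiled-coil protein related to the microtubule-crosslinking protein MTCL1.

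Total counts per library lay between 33778707 and 44130601. Separate cultures are not mentioned in the labels, so a p-value here covers the spread among these libraries alone, and that may be technical. SOGA1 stood at 25.3, 27.2 and 20.2 CPM (counts scaled to the size of the library) in si replicates 1, 2 and 3, and at 64.4, 59.7 and 63.9 CPM in the sinc replicates. Its log2 fold change, si minus sinc as everywhere below, was -1.37 (SE 0.11, edgeR adjusted p = 0.000963), and its CPM values gave p = 0.1 in a two-sided exact permutation test, which cannot go lower with 3 libraries a group. Of the epithelial markers (5 of 6 listed, CDH1 not found), KRT7, KRT8 and KRT18 each had at least 1723 CPM in every library. KRT19 lay between 34.8 and 50.5 CPM in si and between 34.6 and 40.0 CPM in sinc. EPCAM had at most 2.21 CPM in si and 1.43 CPM in sinc. Among the ovarian markers (3 of 4 listed, MUC16 not found), the lineage factor PAX8 lay between 493 and 665 CPM in si. In sinc PAX8 lay between 664 and 708 CPM. MSLN lay between 150 and 180 CPM in si and between 153 and 163 CPM in sinc, and WT1 was at or near 0. Summed leukocyte markers (2 of 4 listed) reached at most 0.236 CPM in si and 0.267 CPM in sinc, and summed endothelial markers (3 of 3) lay between 7.47 and 10.4 CPM in si and between 11.1 and 12.8 CPM in sinc, most of it CDH5. The fibroblast markers (3 of 4) summed to between 127 and 141 CPM in si and between 102 and 107 CPM in sinc, nearly all of it COL1A1, with DCN at or near 0. Whether any of this bears on the dynein genes was not tested.

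All 10 genes passed the filter on low counts, with no fewer than 758 reads in any library. Across the series 10.1% of the 15562 genes tested passed the threshold of an adjusted p of 0.05, 6.00% as lower and 4.14% as higher in si. Of the 10 members, 4 lay past it, all lower in si: DYNC1H1, DYNC1LI2, DCTN1 and DCTN4. The other 6 did not pass. The CPM ranges of si and sinc did not overlap for 8 members, which holds for 34.9% of all genes tested. The median log2 fold change was -0.27 over the members and 0.01 over all genes tested. In bulk RNA a change in the mix of cell states and a change in RNA per cell cannot be told apart.

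**Figure D1:**
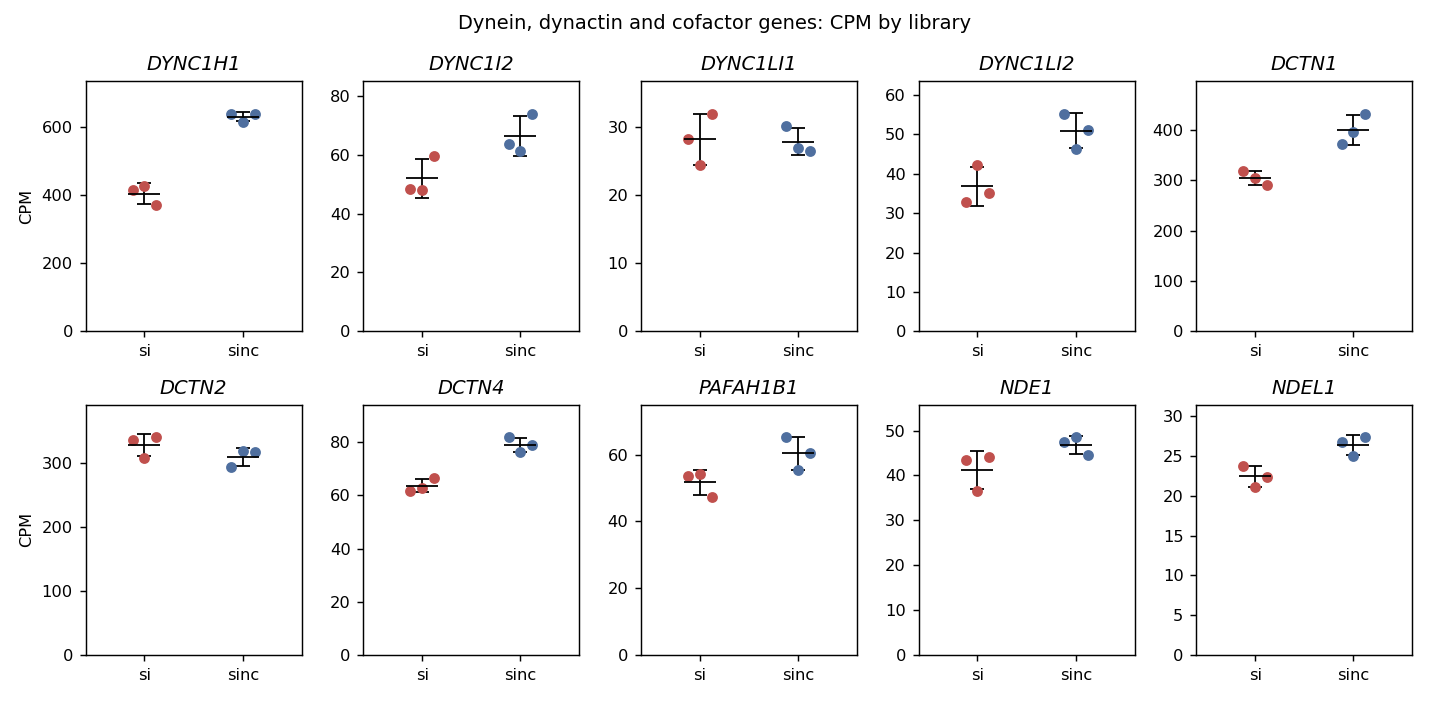
CPM of the 10 genes in each library (points), with the mean and SD of each group (black bar and whiskers, n = 3), si on the left and sinc on the right of each panel; the vertical axes start at 0. The si points lie wholly below the sinc points in every panel except DYNC1LI1 and DCTN2.

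DYNC1H1 (ENSG00000197102; chromosome 14, 101964510 to 102056443, plus strand, in GENCODE 29 on GRCh38, as for all coordinates of genes here) encodes the heavy chain, which holds the ATPase ring and the microtubule-binding stalk. It stood at 415, 428 and 370 CPM in si replicates 1, 2 and 3, against 638, 615 and 640 CPM in the sinc replicates. Every si library was far below every sinc library, and the si libraries were further apart than the sinc ones. The means were 404 ± 30.5 CPM in si and 631 ± 13.5 CPM in sinc (mean ± SD of 3 libraries each), which puts si at 64.1% of sinc. The log2 fold change was -0.64 (SE 0.07), and the gene passed the threshold whichever of the 6 libraries was left out. It was the only member to do so. A pseudogene on the other strand shares 1033 exonic bases with it.

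The 3 genes whose levels over the 6 libraries ran closest to those of DYNC1H1, by Euclidean distance between centred log2 CPM among 10463 other genes with a mean of at least 5 CPM, were SLC23A2, SLC4A8 and HSP90B1. SLC23A2 encodes a vitamin C transporter, SLC4A8 a bicarbonate transporter and HSP90B1 a chaperone of the endoplasmic reticulum. Each lay at a distance of 0.11. They were picked for this likeness, so their lower levels in si follow from the choice and are a description. Their levels were 47.3 ± 5.72 CPM in si and 72.7 ± 3.10 CPM in sinc for SLC23A2, 5.87 ± 0.338 CPM in si and 9.46 ± 0.632 CPM in sinc for SLC4A8, and 269 ± 20.8 CPM in si and 413 ± 20.4 CPM in sinc for HSP90B1 (mean ± SD of 3 libraries each).

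DYNC1I2 (ENSG00000077380; chromosome 2, 171687409 to 171748420, plus strand) encodes an intermediate chain, a scaffold that binds dynactin and the light chains. It had 48.4, 48.2 and 59.8 CPM in si replicates 1, 2 and 3, against 63.7, 61.3 and 74.0 CPM in the sinc replicates. The groups came close, since si replicate 3 was just under sinc replicate 2. The log2 fold change of -0.35 (SE 0.11) did not pass the threshold with all libraries, and it did without si replicate 3 (-0.47) and by DESeq2. A pseudogene copy, DYNC1I2P1, is annotated, so its reads may have been shared.

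The light intermediate chains tether dynein to its cargo adaptors, and a dynein dimer holds either the product of DYNC1LI1 or that of DYNC1LI2. Whether these paralogs differ in their response was not tested. DYNC1LI2 (ENSG00000135720; chromosome 16, 66720893 to 66751798, minus strand) stood at 32.9, 42.3 and 35.2 CPM in si replicates 1, 2 and 3, against 55.3, 46.4 and 51.2 CPM in the sinc replicates. Its si libraries all lay below its sinc libraries, with si replicate 2 nearest to them, and the log2 fold change was -0.47 (SE 0.11). DYNC1LI1 (ENSG00000144635; chromosome 3, 32525971 to 32570874, minus strand) stood at 28.2, 24.4 and 31.96 CPM in si, against 30.1, 26.9 and 26.5 CPM in sinc. Its groups overlapped fully, with a log2 fold change of 0.02 (SE 0.11).

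The ratio of DYNC1LI2 to DYNC1LI1 within a library was 1.17, 1.74 and 1.10 in si replicates 1, 2 and 3, against 1.84, 1.73 and 1.93 in the sinc replicates. Replicate 2 of si thus fell within the sinc range, and the other si libraries did not. The call on DYNC1LI2 held without si replicate 2 (-0.58) and ended when any other library was left out or when no filter on low counts was used. An antisense RNA gene shares 1790 exonic bases with DYNC1LI2, and whether the counting used strand is not given in the sources used here.

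Promoter windows of the member genes, from 250 bases before to 50 after an annotated start, were taken from RefSeq on GRCh38.p14, which had 16 windows for all 10 genes. Those of DYNC1LI2 and DYNC1LI1 are shown because only the first of these paralogs passed the threshold, and that of DCTN4 because it shares a motif with DYNC1LI2. The windows are chr16:66751560-66751859, chr3:32570809-32571108 and chr5:150758968-150759267, all on the minus strand. Capitals mark GGGCGG (the SP1 box), AAGATGGC (a core of YY1 sites), CCAAT boxes, the E-box CACGTG, the cAMP response element TGACGTCA, the ETS site CCGGAAGT and the NRF1 motif. All were searched on both strands, so that GGGCGG also shows as CCGCCC, and none of these contains another.
DYNC1LI2: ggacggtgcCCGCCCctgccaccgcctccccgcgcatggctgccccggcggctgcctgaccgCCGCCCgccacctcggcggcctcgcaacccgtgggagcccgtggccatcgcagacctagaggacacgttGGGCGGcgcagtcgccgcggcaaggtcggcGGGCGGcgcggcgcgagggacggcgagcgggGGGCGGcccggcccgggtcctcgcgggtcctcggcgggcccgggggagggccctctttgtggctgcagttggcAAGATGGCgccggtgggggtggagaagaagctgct
DYNC1LI1: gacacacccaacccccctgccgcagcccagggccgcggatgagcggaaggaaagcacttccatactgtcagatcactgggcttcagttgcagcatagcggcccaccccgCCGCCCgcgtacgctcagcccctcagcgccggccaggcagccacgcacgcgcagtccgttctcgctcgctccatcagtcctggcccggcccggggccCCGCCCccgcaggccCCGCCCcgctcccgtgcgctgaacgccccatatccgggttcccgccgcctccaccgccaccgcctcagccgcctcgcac
DCTN4: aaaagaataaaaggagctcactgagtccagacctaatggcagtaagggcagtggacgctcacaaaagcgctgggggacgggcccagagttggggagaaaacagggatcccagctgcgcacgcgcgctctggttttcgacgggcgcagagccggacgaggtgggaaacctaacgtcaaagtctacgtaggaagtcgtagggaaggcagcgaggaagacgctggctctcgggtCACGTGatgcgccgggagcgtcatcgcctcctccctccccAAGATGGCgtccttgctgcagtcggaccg

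GGGCGG occurred in 12 of the 16 member windows and in 44.95% of the 35116 windows in the RefSeq table. CCAAT was in 4 member windows and in 34.6% of all. AAGATGGC lay in 2 of the 16, those of DYNC1LI2 and DCTN4, and in 2.89% of all. CACGTG was found in 2 and TGACGTCA in 2, against 7.26% and 1.85% of all windows, and CCGGAAGT in 0, against 4.14%. The NRF1 motif was in 1 member window, that of PAFAH1B1, and in 1.24% of all. A match here describes letters and is not a bound site.

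DCTN1 (ENSG00000204843; chromosome 2, 74361154 to 74392087, minus strand) encodes the large sidearm subunit of dynactin, which binds both dynein and microtubules. It had 319, 305 and 291 CPM in si replicates 1, 2 and 3, against 373, 396 and 433 CPM in the sinc replicates. The groups were well apart, with a log2 fold change of -0.40 (SE 0.07) and a si level of 76.0% of sinc. DCTN2 (ENSG00000175203; chromosome 12, 57530102 to 57547331, minus strand) encodes dynamitin, the subunit that joins the sidearm to the filament. Its level was 335, 308 and 340 CPM in si, against 293, 319 and 316 CPM in sinc. These overlapped, and the log2 fold change was 0.08 (SE 0.06). DCTN2 shares 47 exonic bases with MBD6 on the other strand, and DCTN1 shares 562 with its antisense gene. DCTN1 also shares 665 with AC006030.1, a protein-coding gene on the same strand. That gene had 60 reads over the 6 libraries, against 82667 for DCTN1. In CPM, not adjusted for length, DCTN1 was below DCTN2 in every si library and above it in every sinc library. Per kilobase of transcript the mean of DCTN2 lay above that of DCTN1 in both groups (195 against 67.7 in si, 185 against 89.1 in sinc). The CPM ratio of DCTN1 to DCTN2 was 0.933 ± 0.0690 in si and 1.29 ± 0.0661 in sinc (mean ± SD of 3 libraries each).

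DCTN4 (ENSG00000132912; chromosome 5, 150708440 to 150759109, minus strand) encodes a subunit of the complex that caps the pointed end of the filament. It stood at 61.7, 62.9 and 66.5 CPM in si replicates 1, 2 and 3, against 81.8, 76.3 and 78.8 CPM in the sinc replicates. The groups were tight and apart, and the log2 fold change was -0.31 (SE 0.06). The calls on DCTN1 and on DCTN4 held without si replicate 2 or 3 and ended without si replicate 1 or any of the sinc libraries, while their log2 fold changes stayed between -0.45 and -0.34 for DCTN1 and between -0.35 and -0.29 for DCTN4.

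Among the cofactors, PAFAH1B1 (ENSG00000007168; chromosome 17, 2593210 to 2685615, plus strand) had 53.6, 54.1 and 47.5 CPM in si replicates 1, 2 and 3, against 65.2, 55.3 and 60.6 CPM in the sinc replicates. NDE1 (ENSG00000072864; chromosome 16, 15643267 to 15726353, plus strand) had 43.3, 36.4 and 44.1 CPM in si, against 47.4, 48.5 and 44.5 CPM in sinc. NDEL1 (ENSG00000166579; chromosome 17, 8413131 to 8490411, plus strand) had 23.8, 21.2 and 22.4 CPM in si, against 26.8, 25.01 and 27.4 CPM in sinc. For all of them the si libraries lay below the sinc libraries by small margins, and none passed the threshold. The log2 fold changes were -0.22 for PAFAH1B1, -0.18 for NDE1 and -0.23 for NDEL1, each with an SE of 0.09. The paralogs NDE1 and NDEL1 kept a similar proportion, with NDEL1 at 0.546 ± 0.0371 of NDE1 in si and 0.565 ± 0.0495 in sinc (mean ± SD of 3 libraries each), in ranges that overlapped. NDEL1 shares 72 exonic bases with MYH10 on the other strand, which had more reads than NDEL1 itself (23968 against 5695 over the 6 libraries), and NDE1 shares 765 with MYH11, which had 8 reads.

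**Figure D2:**
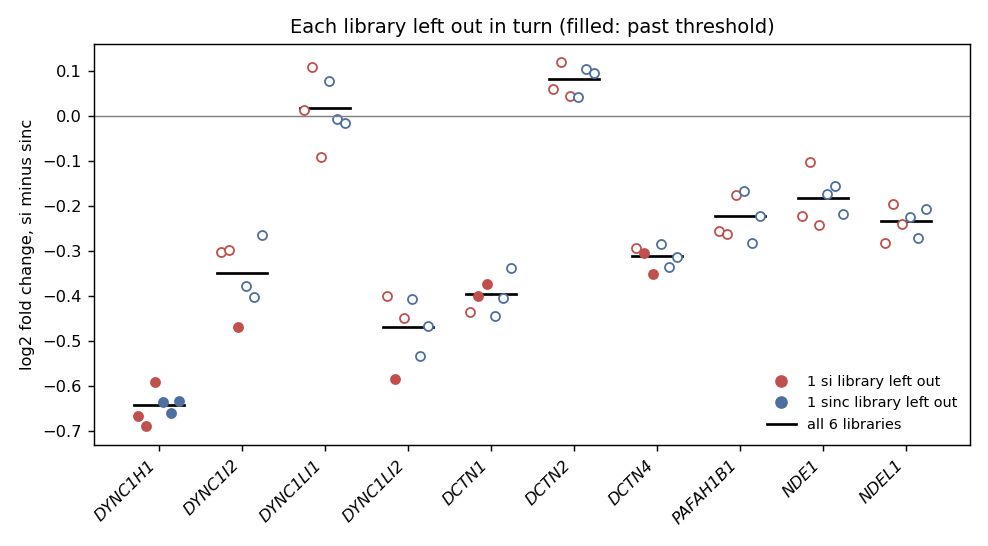
log2 fold change (si minus sinc) of each gene with all 6 libraries (black line) and with each library left out in turn (red, a si library; blue, a sinc library), filled where the gene passed the adjusted p threshold. DYNC1H1 is filled in all 6 fits; DYNC1LI2, DCTN1 and DCTN4 move little but lose the call in most.

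Per kilobase of transcript, DCTN2 and DCTN1 had the highest levels of the 10. DCTN2 came first at 195 ± 10.2 CPM per kilobase in si and 185 ± 8.37 in sinc, and DCTN1 next at 67.7 ± 3.15 in si and 89.1 ± 6.69 in sinc (mean ± SD of 3 libraries each). DCTN4 followed at 36.7 ± 1.43 CPM per kilobase in si and 45.5 ± 1.58 in sinc, with the transcript model of 1737 bases. With its longest coding transcript of 4208 bases, its sinc level would be 18.8, below DYNC1H1 and DYNC1I2. DYNC1H1 had 20.2 ± 1.52 CPM per kilobase in si and 31.5 ± 0.672 in sinc, and DYNC1I2 20.01 ± 2.56 in si and 25.5 ± 2.60 in sinc, so that these neighbours in the order did not differ beyond their spread in si and did in sinc. The other 5 genes lay between 8.15 and 11.3 CPM per kilobase in si and between 10.99 and 11.9 in sinc, and in sinc none of them differed from its neighbours beyond their spread. DYNC1LI2 had the lowest mean of the 10 in si and not in sinc. Its si level of 8.15 ± 1.08 did not differ from the 9.41 ± 0.676 of PAFAH1B1 beyond their spread. Per kilobase of coding sequence alone, these 5 genes ran in sinc from 17.7 for DYNC1LI1 to 49.0 for PAFAH1B1, with DYNC1H1 at 45.3.

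Transcript length and GC content moved with the group difference in these libraries. Over 12829 genes with a coding transcript, Spearman's rho of the log2 fold change was -0.47 with transcript length and 0.49 with GC content. These are correlations across genes that share the same 6 libraries, and genes are not independent replicates. The members had a median length of 3270 bases against 3079 over all genes, and DYNC1H1 had 20003 bases, of which 13941 were coding. On these 12829 genes, with each library corrected for length and GC content, 774 genes passed, against 1861 without the correction. DYNC1H1 then had a log2 fold change of -0.38 and DYNC1LI2 of -0.25, and neither passed the threshold. DCTN1 stood at -0.44 and passed.

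DCTN4 depended on its transcript model. With the short one it stood at -0.44 and passed, and with its longest coding transcript at -0.11 and did not. PAFAH1B1, which has 3813 bases of 3' UTR in 5497, was at 0.09 after correction. DCTN2 was at -0.12, and neither of these passed with or without the correction. The setting with the longest coding transcript was added after the data were seen, and in it DCTN1 (-0.45) and NDEL1 (-0.40) passed as lower.

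**Figure D3:**
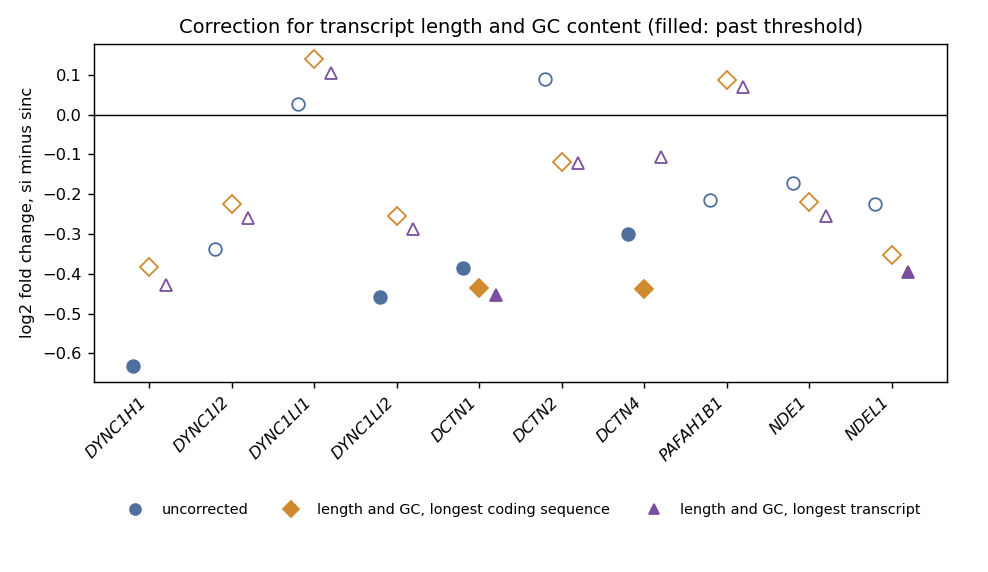
log2 fold change (si minus sinc) of each gene on the genes with a coding transcript, without correction (circles) and with each library corrected for length and GC content of the transcript with the longest coding sequence (diamonds) or of the longest transcript (triangles), filled where past the adjusted p threshold. DYNC1H1 and DYNC1LI2 move toward 0 and lose their fill, and DCTN1 keeps its place and its fill.

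Sequence shared with SOGA1 was looked at because earlier scans of these data had picked out TGAAGTA in the 3' UTRs of genes that were lower in si. These 7 bases occur once in the SOGA1 transcript, in the coding sequence of exon 5 of 15. They end a stretch of 21 bases at chr20:36816186-36816206 (minus strand, GRCh38). The stretch is shown first, with TGAAGTA in capitals. Below it are the windows of DYNC1H1 and DCTN1 aligned to it, the members with the longest identical runs, with the run in capitals, and then the DCTN4 site, again with TGAAGTA in capitals.
SOGA1: gaaggaggagctgcTGAAGTA
DYNC1H1: tacttgtGAGCTGCTGAAcaa
DCTN1: ctgcGAGGAGCTGCTGgggag
DCTN4: gtaataatgtTGAAGTAtgggtctcat

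The run was 11 bases in DYNC1H1 and 12 in DCTN1, both in coding sequence, and between 7 and 10 in the other members. A run of at least 11 bases was found in 8.96% of genes with a coding transcript, whose median log2 fold change was -0.06. TGAAGTA lay in the 3' UTR of 11.4% of these genes, and their log2 fold changes had a median of -0.31, with 0.02 for genes that lack it. None of the 10 members (0) held it in the transcript with the longest coding sequence. Over all their coding transcripts, DCTN4 was the single member with it, in 2 of 9. The printed site comes from one of those, of 4054 bases with a 3' UTR of 2401. This 7-base sequence was picked on the same libraries, so its medians are a description. Genes with and without it were not matched for length or GC content. The log2 fold change correlated with both (Spearman's rho -0.47 and 0.49), so these medians cannot be tied to the sequence. The part of shared sequence in the levels of the members was not tested.

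The remaining subunits of dynein and dynactin moved both ways. Of 16 genes tested, 3 fell, 2 rose and 11 did not pass, with a median log2 fold change of 0.05. The shares over all genes tested were 6.00% lower and 4.14% higher, with a median of 0.01. These 16 genes had a median transcript length of 1852.5 bases, against 3079 over all genes. How much of their median log2 fold change goes with length was not tested. DYNLRB1, a roadblock light chain, rose to 168 ± 8.77 CPM in si, against 126 ± 8.49 CPM in sinc (mean ± SD of 3 libraries each). That is a log2 fold change of 0.41 (SE 0.07, edgeR adjusted p = 0.016). CAPZA1, a subunit of the protein that caps the barbed end of the dynactin filament and of actin filaments elsewhere, fell by 0.44 on the log2 scale (SE 0.10, edgeR adjusted p = 0.0397) to 77.7 ± 8.90 CPM in si, against 105 ± 10.4 CPM in sinc. DCTN5, a pointed-end subunit beside DCTN4, fell by 0.28 (SE 0.07, edgeR adjusted p = 0.0377) to 89.9 ± 3.37 CPM in si, against 109 ± 6.48 CPM in sinc (mean ± SD of 3 libraries each).

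The Arp1 genes of the actin-like filament moved in opposite directions without correction for length and GC content. ACTR1A, the main Arp1 gene, had 175, 172 and 172 CPM in si replicates 1, 2 and 3, against 201, 211 and 229 CPM in the sinc replicates, and fell by 0.31 (SE 0.06, edgeR adjusted p = 0.0266). ACTR1B, its paralog, had 49.6, 53.6 and 50.7 CPM in si, against 43.0, 41.6 and 39.4 CPM in sinc, and rose by 0.31 (SE 0.07, edgeR adjusted p = 0.0311). The ratio of ACTR1B to ACTR1A was 0.297 ± 0.0141 in si and 0.195 ± 0.0210 in sinc (mean ± SD of 3 libraries each), with no overlap (exact two-sided permutation p = 0.1, the smallest possible). Both genes already lay apart in opposite directions, so this p could not come out otherwise and adds nothing to their calls. After that correction ACTR1A stood at -0.44 and still passed. The other 4 did not pass, and their log2 fold changes were 0.11 for DYNLRB1, 0.09 for ACTR1B, -0.30 for CAPZA1 and 0.06 for DCTN5. With each of the 6 libraries dropped in turn, DYNLRB1 passed in 3, ACTR1A and CAPZA1 in 2, ACTR1B in 1 and DCTN5 in 0.

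**Figure D4:**
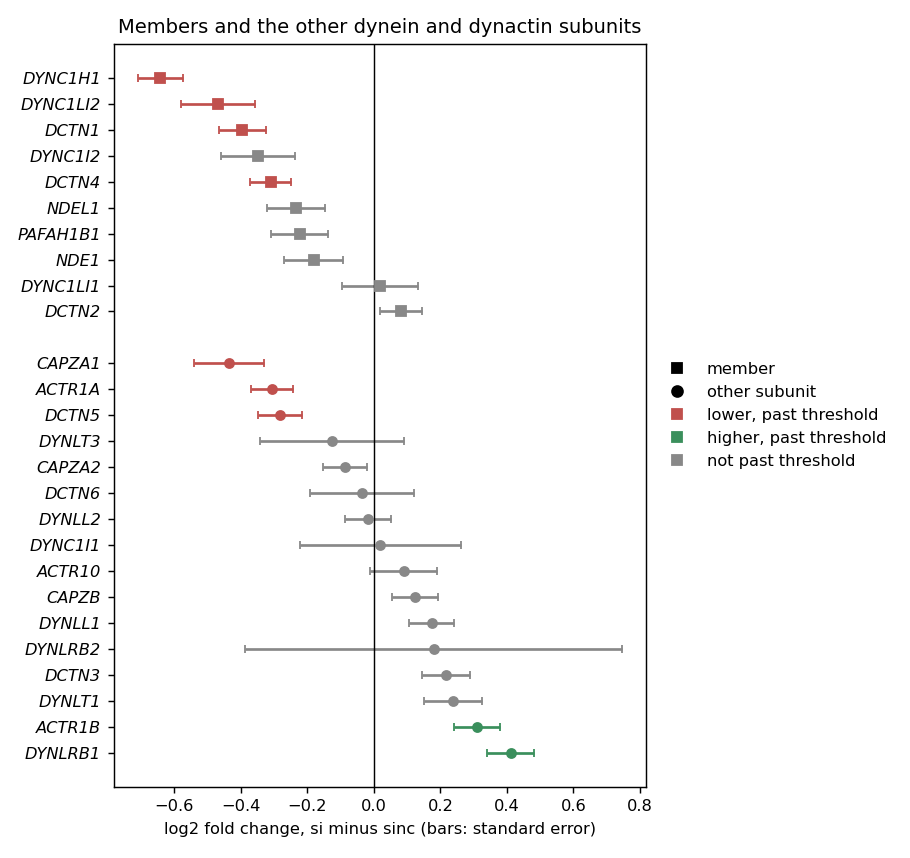
log2 fold change (si minus sinc) with its standard error for the 10 members (squares, top) and the 16 other dynein and dynactin subunit genes (circles, bottom), coloured by whether they passed the adjusted p threshold. The members run from -0.64 to 0.08, and the other subunits from -0.44 to 0.41.

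Of 25 genes tested for dynein adaptors and regulators, 3 fell, 1 rose and 21 did not pass, with a median log2 fold change of -0.23. Over all genes tested 6.00% passed as lower and 4.14% as higher, and the median was 0.01. The median transcript length of this list was 5857 bases, against 3079 over all genes. The part of length in its median log2 fold change was not tested. TRAK2, an adaptor for mitochondria, fell by 0.91 (SE 0.17, edgeR adjusted p = 0.0217), CCDC88C, a hook-related protein, fell by 0.88 (SE 0.14, edgeR adjusted p = 0.0121), and SPAG9, an adaptor also known as JIP4, fell by 0.61 (SE 0.15, edgeR adjusted p = 0.0384). NUDCD3, a chaperone cofactor that stabilises the dynein intermediate chain, rose by 0.30 (SE 0.07, edgeR adjusted p = 0.0374) to 133 ± 1.38 CPM in si, against 108 ± 8.85 CPM in sinc (mean ± SD of 3 libraries each). The level of TRAK2 was 8.44 ± 1.79 CPM in si and 15.8 ± 1.26 CPM in sinc, that of CCDC88C 10.8 ± 1.35 CPM in si and 19.8 ± 2.01 CPM in sinc, and that of SPAG9 34.3 ± 6.20 CPM in si and 52.5 ± 7.17 CPM in sinc. After correction for length and GC content TRAK2 was at -0.57 and SPAG9 at -0.24, and neither passed, while CCDC88C at -0.83 and NUDCD3 at 0.41 did. TRAK2 and SPAG9 hold TGAAGTA in the 3' UTR, as do HOOK3 and CCDC88A, which did not pass. The count varied with the library left out. Without si replicate 2, 12 genes of the list passed as lower and 1 as higher, and 16.1% of all genes tested passed. Without si replicate 1, sinc replicate 2 or sinc replicate 3 none of the list did (0). In these fits 2.23%, 3.01% and 1.91% of all genes tested passed. With 1 library left out in turn, CCDC88C passed in 3 fits of 6, TRAK2 in 2, SPAG9 in 1 and NUDCD3 in 1.

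Dynein-2, the motor of transport inside cilia, is set beside the cytoplasmic motor because it is built from its own heavy and light intermediate chains. Of its 5 genes 0 passed by edgeR. The number was 0 as well by DESeq2, by limma-voom and with an edgeR p under 0.05 before adjustment. Its heavy chain gene DYNC2H1 stood at 2.72, 9.84 and 4.04 CPM in si replicates 1, 2 and 3, against 9.21, 6.03 and 5.46 CPM in the sinc replicates. Replicate 2 of si was the highest of the 6 libraries and the other si libraries were the lowest. When that library was left out, 1 gene of the list passed as lower, and which of the 5 it was is not given here. The genes with the highest CPM, not adjusted for length, were WDR34 and WDR60, which encode its intermediate chains. WDR34 had 102 ± 5.16 CPM in si and 89.9 ± 8.20 CPM in sinc (edgeR adjusted p = 0.176), and WDR60 had 7.98 ± 1.59 CPM in si and 10.9 ± 1.94 CPM in sinc (edgeR adjusted p = 0.183; mean ± SD of 3 libraries each).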

How the data were processed

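The deposited values were whole-number counts per gene in 6 libraries, with a gene ID and symbol per row. CASAVA and StringTie are named in the submitters' processing notes; for the aligner, genome build, annotation and strand setting the sources used here give nothing. Per the labels, libraries were strand-specific and amplified by PCR; no molecular identifiers are named, so reads are not independent molecules. Columns were matched to samples by name. Counts were filtered with filterByExpr (minimum count 10), scaled by TMM and tested with edgeR 4.0.16 in R 4.3.3 (quasi-likelihood, group as the only term, two-sided, Benjamini-Hochberg over 15562 genes, threshold 0.05). Dividing a log2 fold change by the root of its F statistic gave its SE. CPM used the TMM library sizes. No library repeated another of its group: chi-square per gene was 14.0 to 61.0, above sampling noise. Lengths, GC content and UTRs came from the GENCODE 29 transcript with the longest coding sequence. The length and GC correction used splines with 4 degrees of freedom as offsets.

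The members, lists and alternatives were chosen with earlier results of these data known. Genes named were the 10 members, SOGA1, those past the threshold in each other list (up to 6), the 2 with the highest CPM of a list where none passed, and the 3 nearest to DYNC1H1 in profile. DYNC2H1, HOOK3 and CCDC88A were named after their values were seen. Of the adaptors, BICDL1 and HAP1 did not pass the filter and BICDL2 was not analysed here. Alternatives were other scalings, DESeq2 1.42.0, limma-voom (limma 3.58.1), other filters, a replicate block, the length and GC correction, and each library left out.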

Additional observations from a re-analysis of the deposited data

How the results depend on the processing

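SOGA1 stayed lower in si and past the threshold in all 17 other settings, with a log2 fold change between -1.47 and -1.26 when 1 library was left out. Genes past the threshold numbered 1579 (645 higher and 934 lower in si), 2806 by DESeq2, 844 with no filter on low counts (163 higher, 681 lower), and from 203 to 2563 with 1 library left out, the fewest when sinc replicate 1 was dropped and the most when si replicate 2 was. Upper-quartile scaling turned the split to 1005 higher and 890 lower. It changed no count of the lists by over 1.5 times. After correction for length and GC content 774 genes passed (185 higher, 589 lower), and with the longest transcript 749 (173 higher, 576 lower).

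The members past the threshold were 2 under each correction and between 1 and 4 with a library left out. The other subunits past it were 2 with no filter, 1 under each correction, and between 0 and 4 with a library left out. Of the adaptors and regulators 7 passed by DESeq2, 2 with no filter, 2 under each correction, and between 0 and 13 with a library left out. The dynein-2 genes past it numbered between 0 and 1. Over all genes the share past it was 10.5% by DESeq2 and 3.16% with no filter. It was 6.03% under the correction, 5.84% with the longest transcript, and from 1.28% to 16.1% with a library left out. The counts of the lists are not read apart from these shares. DCTN5, lower in si without correction, stood at 0.058 under the correction and at 0.029 with the longest transcript, and the cause was not tested.

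With a replicate block 438 genes passed (102 higher, 336 lower), which is 2.81% of those tested. Among them were 1 member, 0 other subunits and 1 adaptor or regulator, and the member was DYNC1H1. No pairing of the libraries by number was seen. Deviations of same-numbered libraries correlated at -0.18, -0.03 and 0.15, and 2 of 6 libraries correlated best with their own number. With 3 libraries a group these values cannot exclude a pairing. Of the log2 fold changes of the named genes under the other settings, 247 stayed (members within 1 SD, other genes on their side of the threshold). Another 62 of non-members lost their call, 12 of members moved by over 1 SD and 2, both of DCTN5, lost a call and changed sign. Members that lost a call within 1 SD, as DYNC1LI2, DCTN1 and DCTN4 did without si replicate 1, count as stayed. The steadiness of members and other genes is thus not compared by these numbers. Counting every change of sign, there were 11: the 2 of DCTN5, 5 of DYNC1LI1, 2 of DCTN2 and 2 of PAFAH1B1, the last 4 under the corrections.

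Only 3 libraries a group limit the precision, and a gene that missed the threshold is not shown to be equal in si and sinc.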
